A study of Mus musculus with 12 samples.

Results

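Livers of mice given curcumin liposomes were compared directly with livers of mice given calcitriol liposomes. The comparison rests on 6 of the 12 libraries of the series: the 3 with titles naming curcumin and the 3 with titles naming calcitriol. All are RNA sequencing libraries of whole liver from female mice of the inbred strain C57BL/6. The animals ate a high-fat, high-sugar (HFHS) diet over 14 weeks, which models steatohepatitis, the accumulation of fat in an inflamed liver. Liposomes loaded with either drug were injected into a vein at week 12 and again at week 13, and the livers were collected 2 weeks after the first injection. Diet, injections and liposomes as carriers are therefore common to both groups, and the labels let them differ only in the drug. Doses are not given in the sources used here. The other 6 libraries, 3 titled HFHS and 3 titled CNT, carry the same diet text in the labels and did not enter the fit. Their levels are given as a description, and mice given empty liposomes were not analysed here. Whether each library stands for its own animal is not given in the labels. The p-values therefore measure the spread between these libraries, which may be technical.

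Curcumin is a plant polyphenol studied for its effects on inflammatory signalling through NF-kB and on the antioxidant regulator NRF2. Calcitriol is the active hormone of the vitamin D system and acts through the vitamin D receptor, which is scarce in hepatocytes and better known from the non-parenchymal cells of the liver. Those cells include the sinusoidal endothelial cells, which line the liver's capillaries. They have open pores and no continuous basement membrane, and they clear waste macromolecules from the blood through scavenger receptors. They also depend on vascular growth factors made by hepatocytes and send growth factors of their own back to them.

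Genes of the sinusoidal endothelium were lower with curcumin than with calcitriol, and this was the clearest difference between the 2 groups. Of 18 marker genes of these cells, 14 passed the test, and all 14 were lower with curcumin, against 1.27% of all genes tested. The list of markers was chosen with earlier results of these data known. Genes higher with curcumin included Clstn3, Gpc1, the apolipoprotein gene Apoa4, and Cidec and Fitm1, of lipid droplets. Of these genes only Clstn3 passed without curcumin replicate 2. Cidec and Fitm1 also did not pass with transcript length corrected (adjusted p 0.0757 and 0.0673 in limma). Differences were small throughout: of 214 genes that passed, 1, Cidec, differed by 2-fold or more, and the median size of a difference was 0.454. Differences are given on the log2 scale as curcumin minus calcitriol, so that a value of 1 is 2-fold higher and a negative value is lower with curcumin, with the standard error (SE) of the moderated fit and n = 3 in each group.

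Among 12637 genes tested, 53 were higher and 161 lower with curcumin at an adjusted p under 0.05, which is 0.419% and 1.27% of the genes tested and 1.69% in either direction. The 3 curcumin and 3 calcitriol values did not overlap for 28.7% of all genes tested, 13.8% lower and 14.9% higher with curcumin. Groups were apart for each of the 214 genes that passed, so for a called gene this is no further evidence. At an unadjusted p under 0.05, 1472 genes were higher and 1469 lower, and the median difference over all genes was 0.00369. The split toward lower calls is therefore found among the genes that passed and not among all genes. The count depended on single libraries: 14 genes passed without curcumin replicate 2, 55 without calcitriol replicate 2, 335 without curcumin replicate 3 and 603 without calcitriol replicate 1. No gene passed when all 12 libraries shared 1 estimate of the spread (1873 had an unadjusted p under 0.05, smallest adjusted p 0.142), or when no filter on low values was applied (3247 and 0.131).

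The libraries themselves were described before the genes. The first principal component of the 6 libraries took 51.9% of the variance. It placed the curcumin libraries at -6.22, -16.4 and -7.93 and the calcitriol libraries at 3.25, 7.16 and 20.14, so the groups did not overlap, and curcumin replicate 2 and calcitriol replicate 3 lay at the ends. Within a group, libraries had an SD of 0.126 with curcumin and 0.148 with calcitriol, against 0.233 in HFHS and 0.177 in CNT. The deposited log2 values come without counts, so the sequencing depth is unknown. Albumin (Alb), the defining product of hepatocytes, lay between 19.65 and 20.71 in the 6 libraries.

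**Figure D1:**
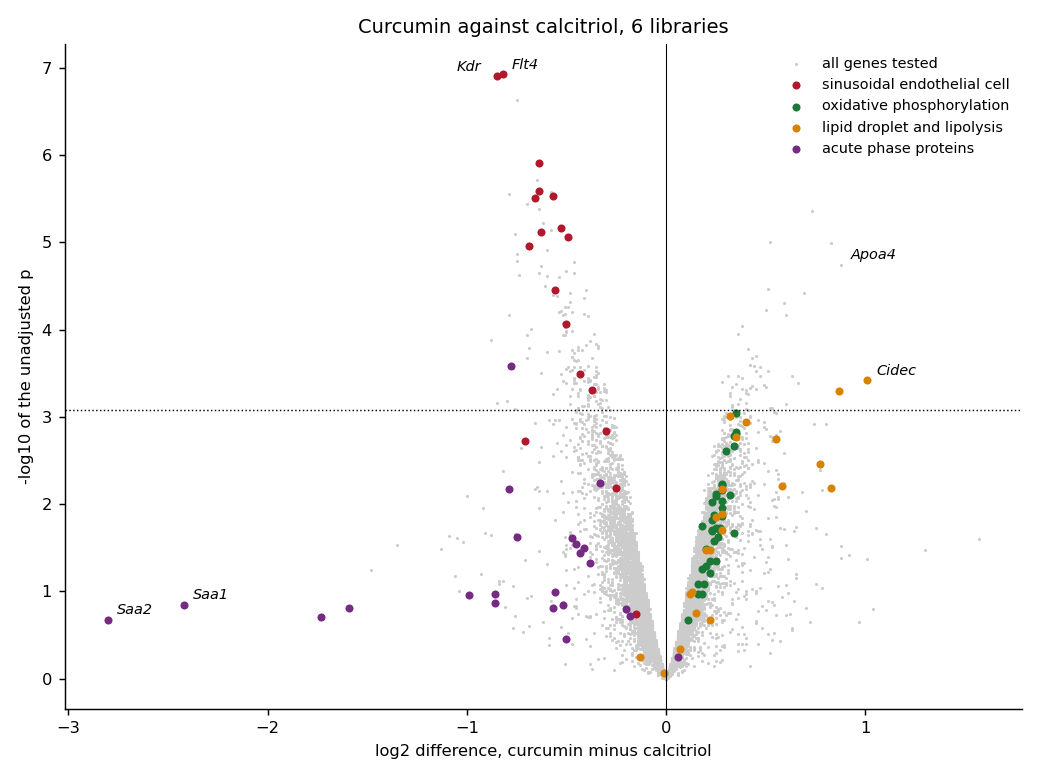
Difference between curcumin and calcitriol (x axis, log2) against the negative log10 of the unadjusted p (y axis) for the 12637 genes tested, with 4 gene lists in colour; genes above the dotted line passed at an adjusted p under 0.05. Sinusoidal endothelial genes lie high on the left with Kdr and Flt4 at the top, while Saa1 and Saa2 show large differences with large p.

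Sinusoidal endothelial genes. The list holds 18 markers, all of which passed the filter on low values. All 18 differences were below 0, from -0.85 to -0.15 with a median of -0.57. The groups did not overlap for 17 of 18, all lower with curcumin, against 13.8% of all genes tested. The same list has a score in each library, the mean deviation of its genes from their means over all 12 libraries. It was -0.23, -0.34 and -0.17 in the curcumin libraries and 0.26, 0.28 and 0.35 in the calcitriol libraries. Every curcumin library lay below every calcitriol library by that score. In whole liver, fewer cells of a type and less RNA per cell cannot be told apart. With curcumin replicate 2 left out, 6 of the 18 passed (Kdr, Flt4, Dnase1l3, Fcgr2b, Mrc1 and Ptprb), and the median was -0.52.

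The receptors for vascular endothelial growth factors stood out. Kdr encodes the main signalling receptor for VEGF-A on blood vessels (ENSMUSG00000062960, GRCm38 chromosome 5, 75932827 to 75978458). Kdr stood at 8.80, 8.70 and 8.96 with curcumin and at 9.64, 9.71 and 9.67 with calcitriol. The highest curcumin value lay well under the lowest calcitriol value, and the difference was -0.85 ± 0.07 (adjusted p = 0.000784). Flt4, the receptor for VEGF-C and VEGF-D, is known from lymphatic vessels and from liver sinusoids (ENSMUSG00000020357, chromosome 11, 49609263 to 49652739). Flt4 stood at 8.37, 8.34 and 8.52 with curcumin and at 9.15, 9.24 and 9.31 with calcitriol, a difference of -0.82 ± 0.07 (adjusted p = 0.000784) with no overlap. Flt1, which binds VEGF-A and VEGF-B, stood at 7.15, 6.95 and 7.15 against 7.70, 7.71 and 7.74. Its difference was -0.64 ± 0.08 (adjusted p = 0.00424). The co-receptor Nrp1 stood at 11.03, 10.97 and 10.97 against 11.25, 11.60 and 11.68, a difference of -0.52 ± 0.10 (adjusted p = 0.0368), again without overlap. Nrp1 did not pass when any of the 3 curcumin replicates or calcitriol replicate 2 was left out (adjusted p 0.0659 to 0.233), whereas Kdr, Flt4 and Flt1 passed with each of the 6 libraries left out (adjusted p up to 0.0421).

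The ligands of these receptors did not pass. Vegfa differed by -0.16 ± 0.14 (adjusted p = 0.516), Vegfb by 0.14 ± 0.09 (0.400) and Vegfc by 0.07 ± 0.10 (0.732), with overlapping groups for each. The intervals of these differences, -0.47 to 0.15 for Vegfa and -0.16 to 0.29 for Vegfc, leave room for changes smaller than those of the receptors. In a list of 31 tested vascular growth factors and receptors, drawn up after values were seen, 24 were below 0, and the median was -0.23. Of the 31, 11 passed as lower with curcumin, against 1.27% of all genes tested, and none passed as higher. Besides the 4 receptors above, the list's called members included Plxnd1, a semaphorin receptor that steers vessel growth, at -0.65 ± 0.07 (adjusted p = 0.00395). Eng, an endothelial co-receptor for BMP ligands, differed by -0.38 ± 0.07 (0.0236), Calcrl, the receptor through which adrenomedullin acts, by -0.35 ± 0.07 (0.0343), and the semaphorin Sema3f by -0.43 ± 0.09 (0.0389). Eng, Calcrl and Sema3f had an adjusted p of 0.151, 0.167 and 0.214 without curcumin replicate 2, and of 0.0723, 0.132 and 0.129 without calcitriol replicate 2. Eng and Sema3f also failed without curcumin replicate 1 (0.0543 and 0.0825). Calcrl failed without curcumin replicate 3 (0.0514), and Calcrl and Sema3f without calcitriol replicate 3 (0.0607 and 0.0859). Nrp1 (0.0618) and Calcrl (0.0853) also failed with transcript length corrected.

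Scavenger and clearance receptors made up much of the sinusoidal list. Mrc1, the mannose receptor, stood at 9.55, 9.41 and 9.59 with curcumin and at 10.04, 10.09 and 10.13 with calcitriol, a difference of -0.57 ± 0.07 (adjusted p = 0.00395). Fcgr2b, the inhibitory receptor with which these cells take up immune complexes, stood at 9.47, 9.37 and 9.56 against 10, 10.14 and 10.19. It differed by -0.64 ± 0.07 (adjusted p = 0.00395). The lectin Clec4g stood at 9.41, 9.31 and 9.32 against 9.86, 10 and 10.24, a difference of -0.69 ± 0.09 (adjusted p = 0.0063). The groups were apart for each of the 3 genes, with the curcumin values below. The hyaluronan scavenger receptor Stab2 differed by -0.43 ± 0.08 (0.0351). Its relative Stab1 stood at 9.04, 8.84 and 9.44 against 9.73, 9.80 and 9.93 and did not pass (-0.71 ± 0.15, adjusted p = 0.0611). Its large SE goes with the spread among the curcumin libraries. Lyve1, a hyaluronan receptor, had overlapping groups (-0.15 ± 0.11, adjusted p = 0.412). Stab2 lost its call without curcumin replicate 1 or 2 or calcitriol replicate 2 (adjusted p 0.0754, 0.208 and 0.115) or with length corrected (0.086), and Clec4g without curcumin replicate 2 (0.0956).

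**Figure D2:**
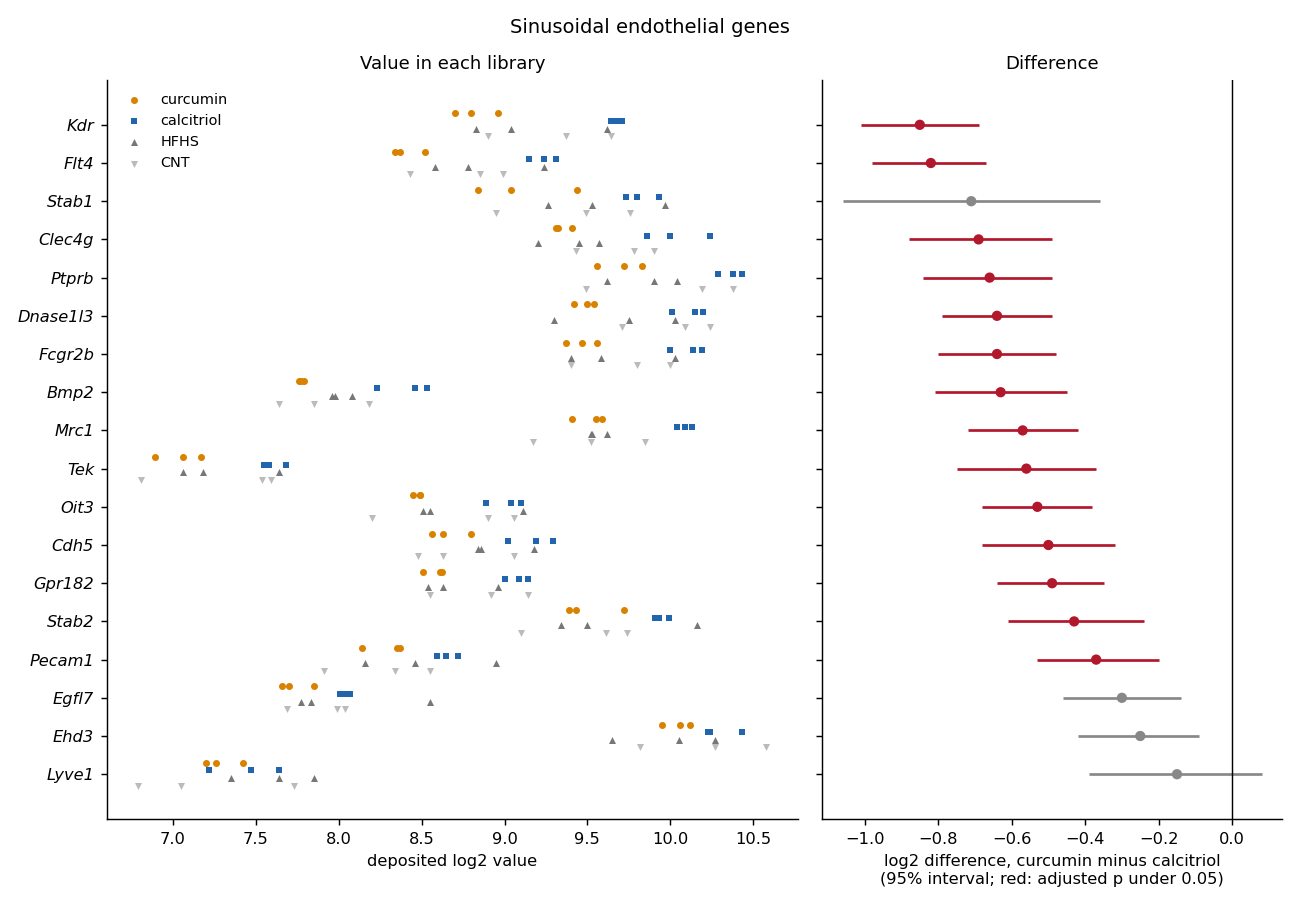
Left, deposited log2 value (x axis) of the 18 sinusoidal endothelial genes (y axis) in each of the 12 libraries, by group; right, the difference between curcumin and calcitriol with its 95% interval. Curcumin values lie left of calcitriol values for every gene but Lyve1, and the HFHS and CNT libraries spread over the range of both.

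Other products of these cells, among them secreted and junctional ones, followed the same order. Dnase1l3, a secreted nuclease that digests DNA in blood, stood at 9.54, 9.42 and 9.50 with curcumin and at 10.01, 10.20 and 10.15 with calcitriol, a difference of -0.64 ± 0.07 (adjusted p = 0.00389). Ptprb, a phosphatase that restrains the angiopoietin receptor, differed by -0.66 ± 0.08 (0.00395), and that receptor, Tek, by -0.56 ± 0.09 (0.0117). Its partner Tie1 stood at 7.37, 7.31 and 7.46 against 7.79, 7.80 and 7.94, and the difference was -0.47 ± 0.08 (0.0154). The curcumin values of all 4 genes lay below the calcitriol values. The adhesion molecules of endothelial junctions, Cdh5 and Pecam1, differed by -0.50 ± 0.08 (0.0183) and -0.37 ± 0.08 (0.0389). The sinusoidal markers Oit3 (-0.53 ± 0.07, 0.00563) and Gpr182, an atypical chemokine receptor (-0.49 ± 0.06, 0.0058), were lower as well. Egfl7 (-0.30 ± 0.07, adjusted p = 0.0575) and Ehd3 (-0.25 ± 0.08, 0.0978) had groups apart and did not pass. When curcumin replicate 2 was left out, the adjusted p was 0.0421 for Dnase1l3 and Ptprb, 0.0645 for Oit3 and Gpr182, 0.0789 for Tek, 0.116 for Tie1, 0.151 for Cdh5 and 0.187 for Pecam1. Pecam1 also failed without curcumin replicate 1 (0.0559) or calcitriol replicate 2 or 3 (0.0993 and 0.0783). Tie1 failed without calcitriol replicate 2 as well (0.0504).

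Growth factors that the endothelium sends to hepatocytes were mixed. Bmp2, which with Bmp6 prompts hepatocytes to make the iron hormone hepcidin, stood at 7.77, 7.79 and 7.76 with curcumin and at 8.23, 8.46 and 8.53 with calcitriol. Bmp2 differed by -0.63 ± 0.08 (adjusted p = 0.00567), and Bmp6 by -0.45 ± 0.09 (0.0368), without overlap for either. They are the 2 genes that passed among 23 tested genes of iron handling, whose median was -0.02. Hamp, the hepcidin gene itself, had overlapping groups and differed by -0.25 ± 0.27 (adjusted p = 0.606). Hgf, the hepatocyte growth factor, made by stellate and endothelial cells, stood at 7.82, 7.81 and 7.93 against 8.26, 8.25 and 8.54 (-0.50 ± 0.09, adjusted p = 0.0208). Its receptor Met differed by -0.24 ± 0.07 (0.0971). Wnt2, Wnt9b and Rspo3, endothelial signals that maintain the hepatocytes around the central vein, differed by -0.28 ± 0.09 (0.115), 0.03 ± 0.09 (0.856) and 0.16 ± 0.09 (0.299). Without curcumin replicate 2, the adjusted p was 0.0645 for Bmp2, 0.126 for Bmp6 and 0.166 for Hgf, and Bmp6 also failed without curcumin replicate 1 or 3 or calcitriol replicate 2 or 3 (0.0613 to 0.14) or with length corrected (0.0559).

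Endothelial genes outside the list were among those with the smallest p. The water channel Aqp1 stood at 10.10, 10.03 and 10.21 with curcumin and at 10.89, 10.87 and 10.83 with calcitriol, a difference of -0.75 ± 0.07 (adjusted p = 0.00099). Adgrl4, an adhesion receptor of endothelial cells, stood at 7.33, 7.09 and 7.42 against 8.14, 8.10 and 7.97, a difference of -0.79 ± 0.09 (0.00395). F8, clotting factor VIII, which in the liver comes from the sinusoidal endothelium, stood at 7.35, 7.18 and 7.70 against 8.20, 8.17 and 8.22 (-0.79 ± 0.12, 0.0154). No curcumin value of these genes reached a calcitriol value. Podxl (-0.62 ± 0.08, 0.00543), a sialomucin of the endothelial surface, Adgrf5 (-0.75 ± 0.10, 0.00717) and Kit, the stem cell factor receptor (-0.75 ± 0.11, 0.00813), were lower too. In a list of 27 tested genes of general and large-vessel endothelium, drawn up after values were seen, 3 passed, all lower, and the median was again -0.23. They were Cd93 (-0.57 ± 0.09, 0.0124), Mmrn2 (-0.52 ± 0.09, 0.0154) and Robo4 (-0.47 ± 0.09, 0.0264), and the large-vessel marker Vwf differed by -0.05 ± 0.08 (0.736). Across the 3 endothelial lists, 25 of the 161 genes lower with curcumin and none of the 53 higher ones were members, out of 73 tested. Of all genes tested, 1.27% were called lower and 0.419% higher. Of the 3 lists, 2 were drawn up after values were seen and the other with earlier results of these data known. The pooled count is therefore a description and not a test. Aqp1, Adgrl4 and Podxl passed with each library left out, while without curcumin replicate 2 the adjusted p was 0.0681 for F8 and Kit, 0.0632 for Adgrf5, 0.103 for Cd93, 0.0856 for Mmrn2 and 0.151 for Robo4. Without calcitriol replicate 2 it was 0.064 for F8, 0.054 for Mmrn2 and 0.089 for Robo4, and without curcumin replicate 1 it was 0.0597 for Robo4.

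Promoters of the 4 sinusoidal genes with the smallest p that have an entry are shown because these genes moved together; Dnase1l3 is named only. Each run is the 250 bases before the transcription start in RefSeq on GRCm38.p6, written 5′ to 3′ on the strand of the gene. RefSeq and GENCODE place these starts differently: the Flt4 and Fcgr2b windows lie wholly inside the GENCODE gene spans, and those of Kdr and Mrc1 overlap theirs at 1 end. Capitals mark AGGAAG on either strand, a core bound by ETS factors of endothelial cells, and AGGTCA on either strand, an element that nuclear receptors bind in pairs, the vitamin D receptor among them.
Flt4 (chr11:49609429-49609678, plus strand): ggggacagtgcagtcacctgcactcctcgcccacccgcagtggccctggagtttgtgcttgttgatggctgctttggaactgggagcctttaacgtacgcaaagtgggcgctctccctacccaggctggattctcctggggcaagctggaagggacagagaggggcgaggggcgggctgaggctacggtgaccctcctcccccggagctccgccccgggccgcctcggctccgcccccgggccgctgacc
Kdr (chr5:75978456-75978705, minus strand): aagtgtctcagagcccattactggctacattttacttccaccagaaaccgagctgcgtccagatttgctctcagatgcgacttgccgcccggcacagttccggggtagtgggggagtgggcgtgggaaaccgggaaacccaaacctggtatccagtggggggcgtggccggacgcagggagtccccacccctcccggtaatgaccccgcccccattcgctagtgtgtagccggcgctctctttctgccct
Fcgr2b (chr1:170976072-170976321, minus strand): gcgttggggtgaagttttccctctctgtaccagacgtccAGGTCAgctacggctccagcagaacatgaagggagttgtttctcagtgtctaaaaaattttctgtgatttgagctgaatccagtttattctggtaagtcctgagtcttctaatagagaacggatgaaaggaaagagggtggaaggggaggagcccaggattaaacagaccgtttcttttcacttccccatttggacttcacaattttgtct
Mrc1 (chr2:14229164-14229413, plus strand): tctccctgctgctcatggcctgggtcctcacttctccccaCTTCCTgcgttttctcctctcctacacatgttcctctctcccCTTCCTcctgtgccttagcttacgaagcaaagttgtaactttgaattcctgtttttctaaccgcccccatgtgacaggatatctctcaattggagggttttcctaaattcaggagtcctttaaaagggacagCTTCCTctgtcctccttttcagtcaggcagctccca
Mrc1 held 3 copies of the ETS core, all on the opposite strand and thus printed as CTTCCT, at 210 to 205, 168 to 163 and 36 to 31 bases before the start. Fcgr2b held 1 copy of the receptor element, at 211 to 206 bases before the start, and Flt4 and Kdr held neither run of letters in this window. Of the 18 sinusoidal genes 10 had an entry, of which 5 held the ETS core and 3 the receptor element. The ETS core was present in 28.1% of the 9857 promoters of tested genes, in 39.0% of the 118 of genes lower with curcumin and in 24.4% of the 45 of genes higher with curcumin. The shares for the receptor element were 10.7%, 9.32% and 6.67%. A match is a description of the letters only.

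The HFHS and CNT libraries give levels beside those of the drug groups. The sinusoidal score was -0.18, -0.12 and 0.24 in the HFHS libraries and 0.26, 0.03 and -0.40 in the CNT libraries. CNT thus spanned nearly the whole range from curcumin to calcitriol. HFHS spanned a smaller part, and its highest score lay just below the lowest of calcitriol, 0.26. The mean of HFHS lay between the means of the drug groups for 15 of the 18 genes and that of CNT for 14. The HFHS mean was nearer to curcumin for 12 of 18, and so was the CNT mean for 12 of 18. Kdr, for example, averaged 8.82 ± 0.13 with curcumin, 9.67 ± 0.03 with calcitriol, 9.17 ± 0.41 in HFHS and 9.30 ± 0.38 in CNT (mean ± SD, n = 3 each). HFHS replicate 3 and CNT replicate 1 lay near calcitriol for Kdr, at 9.62 and 9.64, and HFHS replicate 1 and CNT replicate 3 near curcumin, at 8.83 and 8.90. With all 12 libraries in the fit, 0 of the 18 sinusoidal genes passed and 13 were lower at an unadjusted p under 0.05. Of all 161 genes lower with curcumin, the HFHS mean lay between the drug groups for 129, and of the 53 higher ones for 27. For the CNT mean these counts were 125 and 27. The called genes were picked for a gap between the drug groups, and the share over all genes tested was not computed.

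Transcript length moved with the difference. Among tested genes with a length, the median difference was 0.11 in the shortest of 5 equal classes (57 to 1957 bases) and -0.11 in the longest (5253 to 123179 bases), with 0.05, 0.01 and -0.03 between them. The longest class held 84 of the genes lower with curcumin and 1 of those higher, and the shortest held 8 and 23. The median length was 5464 bases for the genes lower with curcumin, 2135 for those higher, 3974 for the sinusoidal list and 3378 for all. In the longest class, the median deviation was -0.05, -0.11 and -0.01 in the curcumin libraries and 0.05, 0.07 and 0.05 in the calcitriol libraries. With each library corrected for length, 14 of the 18 sinusoidal genes passed, with a median of -0.51, while the count of all calls was 107, with 24 higher and 83 lower. Kdr and Flt4 then had an adjusted p of 0.0011. Of the 212 called genes with a length, 92 were still called. Among them were 13 of the 14 sinusoidal genes, all but Stab2, and Egfl7, which had not passed, did so (-0.37, adjusted p = 0.0383). Calls were lost in either direction and at short and long lengths. The difference of Kmt2c, a histone methyltransferase, was -0.34 ± 0.07 without the correction (adjusted p = 0.035) and -0.17 with it (0.161). Apc, a brake on WNT signalling, had -0.28 ± 0.06 (0.0497) and then -0.12 (0.291), and Cidec had 0.94 (0.0757). What makes length move with the groups was not tested.

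**Figure D3:**
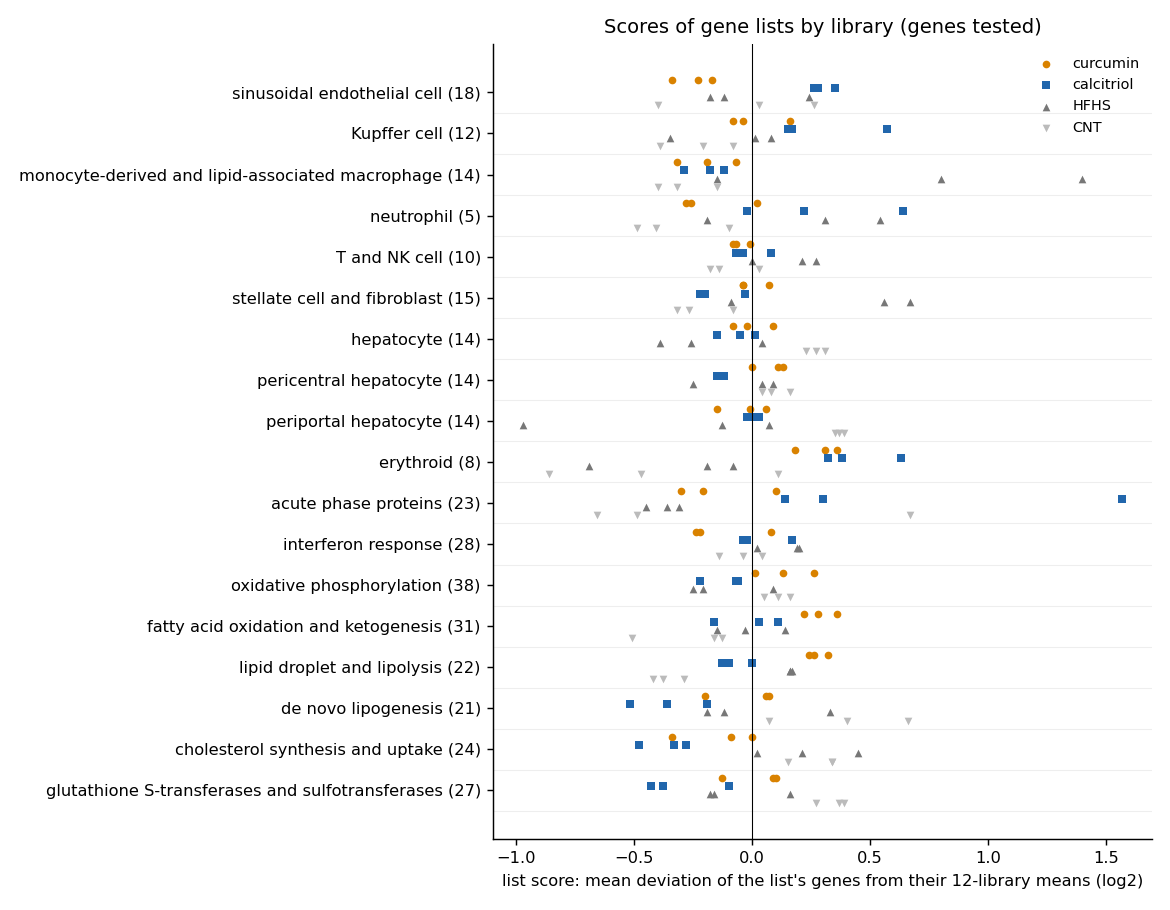
Score of 18 gene lists (y axis, number of tested genes in brackets) in each of the 12 libraries (x axis, mean log2 deviation from the 12-library mean of each gene). The curcumin and calcitriol libraries lie apart for the sinusoidal endothelial, oxidative phosphorylation, fatty acid oxidation, lipid droplet, pericentral hepatocyte and acute phase lists. For acute phase proteins the gap is narrow, from 0.10 in curcumin replicate 1 to 0.14 in calcitriol replicate 1. Calcitriol replicate 3 lies at 1.57 for that list.

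Other cell types were followed with marker lists of their own. For Kupffer cells, the resident macrophages, 11 of 12 genes were below 0 with a median of -0.31. The groups were apart and lower with curcumin for 5, against 13.8% of all genes tested, and 1 gene passed. That gene, Cdh5, is also in the sinusoidal list. The Kupffer cell markers Clec4f (-0.28 ± 0.09, adjusted p = 0.101), Vsig4 (-0.36 ± 0.10, 0.0829) and Cd163 (-0.57 ± 0.13, 0.0727) had groups apart and did not pass. The Kupffer score was 0.16, -0.04 and -0.08 with curcumin and 0.15, 0.17 and 0.57 with calcitriol, which overlapped, and without calcitriol replicate 3 the median was -0.19. Mrc1, Fcgr2b and Stab1 are also made by macrophages, and the part of macrophages in their differences was not tested. For neutrophils 5 of 12 markers could be tested, 0 passed, and the median was -0.46, with scores from -0.28 to 0.02 with curcumin and from -0.02 to 0.64 with calcitriol. Of the 14 hepatocyte markers 0 passed, with a median of 0.03. The lists of T and NK cells (10 tested), B and plasma cells (10), dendritic cells (6), cholangiocytes (9), stellate cells and fibroblasts (15), and monocyte-derived macrophages (14) had no called gene, with medians of -0.01, 0.05, -0.03, 0.19, 0.12 and -0.06. Red cell genes differed by a median of -0.14 over 8 genes with none called.

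A pair of fat storage genes, Cidec and Fitm1, passed as higher with curcumin. Cidec encodes a protein that fuses lipid droplets into larger ones (ENSMUSG00000030278, chromosome 6). Cidec stood at 6.83, 7.11 and 7.22 with curcumin and at 6.41, 5.91 and 5.80 with calcitriol, a difference of 1.01 ± 0.17 (adjusted p = 0.0368), or 2.02-fold. Fitm1, a protein of the endoplasmic reticulum that helps form droplets, stood at 8.15, 8.41 and 8.12 against 7.70, 7.17 and 7.21, a difference of 0.87 ± 0.15 (0.039). The groups did not overlap for either gene, and calcitriol replicate 1 lay nearest to curcumin in both. Cidec and Fitm1 were the 2 genes called among 22 tested genes of lipid droplets and lipolysis. Of the 22, 20 were above 0, and the median was 0.28. The groups were apart and higher with curcumin for 13, against 14.9% of all genes tested. The droplet coat genes Plin4 (0.83 ± 0.20, adjusted p = 0.0975), Plin5 (0.35 ± 0.09, 0.0595) and Plin3 (0.32 ± 0.07, 0.0524) and the lipase inhibitor G0s2 (0.40 ± 0.09, 0.0537) had groups apart and did not pass. Plin2 had overlapping groups (0.15 ± 0.10, 0.410). In HFHS livers Cidec averaged 7.67 ± 0.71 and in CNT livers 5.37 ± 0.14, so HFHS lay above both drug groups and CNT below both. Without curcumin replicate 2 the adjusted p was 0.226 for Cidec and 0.208 for Fitm1, and without calcitriol replicate 2 it was 0.137 and 0.121. With length corrected 0 of the 22 genes passed, with an adjusted p of 0.0757 for Cidec and 0.0673 for Fitm1. Cidec also failed without curcumin replicate 3 or calcitriol replicate 3 (0.0602 and 0.0522), and Fitm1 without curcumin replicate 1 or 3 or calcitriol replicate 3 (0.0704, 0.0584 and 0.097).

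Lipid carriers and enzymes of fatty acid synthesis showed few calls. Apoa4, an apolipoprotein that liver and gut secrete with fat, stood at 13.76, 14.11 and 13.98 with curcumin and at 13.19, 12.84 and 13.19 with calcitriol. The groups were apart, with a difference of 0.88 ± 0.12 (adjusted p = 0.00844). It was the 1 gene called of 26 in the apolipoprotein list, whose median was 0.18, and without curcumin replicate 2 its adjusted p was 0.0975. Elovl5, which lengthens polyunsaturated fatty acids, stood at 13.06, 13.35 and 13.24 against 12.83, 12.49 and 12.33 (0.66 ± 0.13, 0.0368). Me1, which supplies NADPH for lipid synthesis, stood at 10.21, 10.58 and 10.48 against 9.99, 10.08 and 9.98 (0.41 ± 0.09, 0.0493). Elovl5 and Me1 were the 2 called of 21 tested lipogenic genes, whose median was 0.29, and both had groups apart. Of 24 genes of cholesterol synthesis and uptake 0 passed, 22 were above 0, and the median was 0.21. Leaving out curcumin replicate 2 gave an adjusted p of 0.236 for Elovl5 and 0.249 for Me1. With length corrected neither passed (0.0646 and 0.0754), and the 1 lipogenic gene that did was Acacb, an acetyl-CoA carboxylase (0.48, 0.0469). Apoa4 kept its call (0.0162). Elovl5 also failed without curcumin replicate 3 or calcitriol replicate 2 (0.0682 and 0.138), and Me1 failed without any library but curcumin replicate 1 (0.0547 to 0.249).

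Genes of mitochondrial and peroxisomal fat burning leaned the same way with 1 call in the list. Acot2, a mitochondrial thioesterase, stood at 8.35, 8.40 and 8.39 with curcumin and at 7.96, 7.98 and 8.07 with calcitriol, a difference of 0.38 ± 0.06 (adjusted p = 0.0189). Acot2 has close relatives among the acyl-CoA thioesterases that could share reads. Of 31 tested genes of fatty acid oxidation and ketogenesis, 28 were above 0, and the median was 0.28. The groups were apart and higher with curcumin for 24, against 14.9% of all genes tested. Bdh1, an enzyme of ketone body metabolism, had groups apart and did not pass (0.46 ± 0.12, adjusted p = 0.0773), and the carnitine transferase Cpt1a differed by 0.12 ± 0.09 (0.452). Pex11a, which drives the division of peroxisomes, stood at 11.66, 11.95 and 11.88 against 11.32, 11.30 and 11.07 (0.60 ± 0.10, 0.0154). Hsd17b10, a mitochondrial dehydrogenase of isoleucine breakdown, stood at 10.85, 11.22 and 10.93 against 10.56, 10.45 and 10.18 (0.60 ± 0.12, 0.0466). The curcumin values lay above all calcitriol values for both. Leaving out curcumin replicate 2 gave an adjusted p of 0.116 for Acot2, 0.149 for Pex11a and 0.192 for Hsd17b10, and without calcitriol replicate 2 it was 0.084 for Acot2 and 0.132 for Hsd17b10. Hsd17b10 also failed without curcumin replicate 3 (0.0657) and with length corrected (0.0899).

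Subunits of the respiratory chain were all on 1 side without a call. All 38 tested genes of oxidative phosphorylation differed by more than 0, from 0.11 to 0.35 with a median of 0.25. The groups were apart and higher with curcumin for 31 of 38, against 14.9% of all genes tested. Of the 38, 30 had an unadjusted p under 0.05 in limma, and 0 passed. Ndufa2, a subunit of complex I, stood at 9.98, 10.03 and 9.74 with curcumin and at 9.56, 9.55 and 9.59 with calcitriol (0.35 ± 0.08, adjusted p = 0.0519). The list score was 0.13, 0.26 and 0.01 with curcumin and -0.06, -0.07 and -0.22 with calcitriol. Their transcripts are short, with a median of 1386 bases, and with length corrected the median was 0.16, 37 of 38 were above 0 and 17 had an unadjusted p under 0.05. Ribosomal protein genes, shorter still at a median of 1200 bases, differed by a median of 0.11, and by 0.03 with length corrected, with 0 of 36 called.

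**Figure D4:**
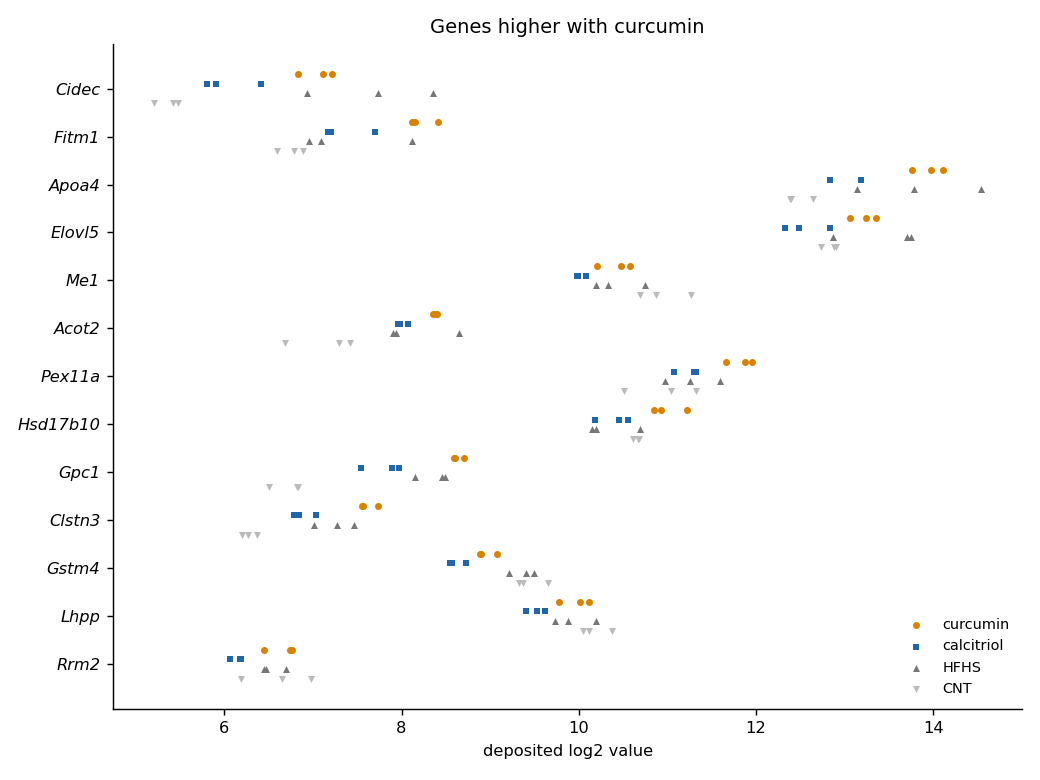
Deposited log2 value (x axis) in each of the 12 libraries for 13 genes that were higher with curcumin than with calcitriol (y axis). Curcumin values lie to the right of calcitriol values for each gene, and HFHS and CNT values lie above, between or below them depending on the gene.

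Conjugating enzymes included 1 called gene. Gstm4, a glutathione S-transferase, stood at 8.90, 9.08 and 8.89 with curcumin and at 8.73, 8.57 and 8.55 with calcitriol, a difference of 0.34 ± 0.08 (adjusted p = 0.0493). Gstm1 (0.53 ± 0.13, 0.0611) and Gstm2 (0.55 ± 0.11, 0.0519) had groups apart and did not pass. These genes are close relatives that could share reads, so their single values are uncertain. Of 27 tested glutathione S-transferases and sulfotransferases 25 were above 0, with a median of 0.29. The groups were apart and higher with curcumin for 18, against 14.9% of all genes tested. Among 35 tested cytochrome P450 genes of families 1 to 3, 0 passed, the median was 0.16, and Cyp3a11, the main drug-metabolising form, differed by 0.37 ± 0.13 (0.14). Gstm4 lost its call without any library but calcitriol replicate 1 (adjusted p 0.0529 to 0.241) and with length corrected (0.101).

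The acute phase is the liver's secretory response to injury and cytokines. Saa2, a serum amyloid gene, stood at 11.58, 10.13 and 9.99 with curcumin and at 11.35, 11.64 and 17.12 with calcitriol. Calcitriol replicate 3 was far above the rest, the groups overlapped, and the difference of -2.80 ± 1.90 did not pass (adjusted p = 0.446). Saa1 (12.65, 13.13 and 16.69 with calcitriol), Orm2 (9.83, 9.76 and 13.02) and Lcn2 (11.25, 11.25 and 13.92) had the same high library and did not pass either. Saa1 and Saa2 are near-identical, so reads could be split between them. The list's 23 tested genes had a median of -0.56, and 22 were below 0. The groups were apart and lower with curcumin for 12, against 13.8% of all genes tested. Without calcitriol replicate 3 the median was -0.24. The acute phase score was 1.57 in calcitriol replicate 3, 0.14 and 0.30 in the other calcitriol libraries, and -0.30 to 0.10 with curcumin. In CNT it was -0.66, -0.49 and 0.67, and the CNT library with 0.67, replicate 3, had the lowest sinusoidal score of all, -0.40, whereas calcitriol replicate 3 had the highest, 0.35.

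The feedback inhibitor of the acute phase did pass. Socs3, which curbs cytokine signalling through STAT3, stood at 7.02, 6.93 and 7.03 with curcumin and at 7.57, 7.64 and 8.13 with calcitriol, a difference of -0.78 ± 0.13 (adjusted p = 0.0328). Stat3 itself stood at 11.53, 11.34 and 11.37 against 11.59, 11.71 and 11.92 and did not pass (-0.33 ± 0.10, 0.0949). Cxcl1, a chemokine that draws neutrophils, stood at 6.27, 5.96 and 5.97 against 7.04, 6.55 and 7.16 and was lower with curcumin (-0.85 ± 0.16, 0.0465). Curcumin values lay below all calcitriol values for the 3 genes. Without calcitriol replicate 3, Socs3 had an adjusted p of 0.00438 and Cxcl1 of 0.0544. Socs3 failed without any curcumin replicate or calcitriol replicate 2 (0.0589 to 0.224), and Cxcl1 passed only without calcitriol replicate 2 (0.00707; 0.0502 to 0.259 without each of the others) and not with length corrected (0.0559).

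**Figure D5:**
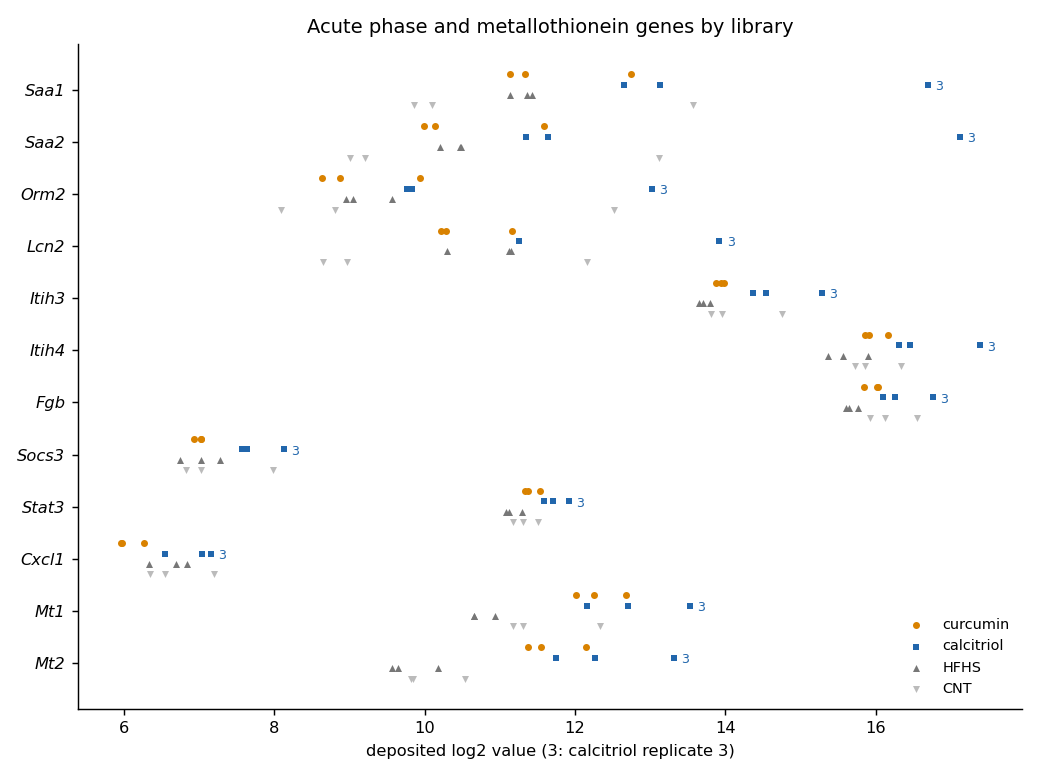
Deposited log2 value (x axis) in each of the 12 libraries for acute phase genes, the chemokine Cxcl1 and the metallothioneins Mt1 and Mt2 (y axis); the digit 3 marks calcitriol replicate 3. That library lies far to the right for Saa1, Saa2, Orm2 and Lcn2, while Socs3 separates the curcumin libraries from all 3 calcitriol libraries.

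Among genes tied to the drugs themselves, few passed. The vitamin D receptor gene Vdr lay between -0.72 and -0.66 in all 12 libraries, too low to test, and its target Cyp24a1, which degrades calcitriol, is listed at 0 throughout. Of 8 tested genes of vitamin D action and metabolism 0 passed, with a median of 0.06. The circulating carrier Gc differed by 0.04 ± 0.12 (adjusted p = 0.864) and the 25-hydroxylase gene Cyp2r1 by 0.05 ± 0.08 (0.778). Among 25 tested NRF2 targets 1 passed, Me1, and the median was 0.19. Of the 25, 21 were above 0 and 12 were higher at an unadjusted p under 0.05 in limma. The groups were apart and higher with curcumin for 13 of them, against 14.9% of all genes tested. Nqo1 differed by 0.36 ± 0.11 (0.105), Hmox1 by -0.12 ± 0.15 (0.681) and Gclc by 0.09 ± 0.08 (0.476). Of 23 tested genes of the NF-kB pathway 1 passed, Cxcl1, and the median was -0.06. The NF-kB inhibitor Nfkbia differed by 0.07 ± 0.06 (0.518), Il1b by -0.08 ± 0.14 (0.774) and Ccl2 by 0.12 ± 0.12 (0.573), with overlapping groups, and Tnf was too low to test. The zinc-binding metallothioneins Mt1 (-0.49 ± 0.41, 0.534) and Mt2 (-0.76 ± 0.49, 0.423) had overlapping groups, with calcitriol replicate 3 highest at 13.53 and 13.31.

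Remaining lists held at most 1 called gene each. In the interferon response list Mx2, an antiviral GTPase, stood at 5.71, 5.74 and 5.81 with curcumin and at 6.14, 6.37 and 6.12 with calcitriol (-0.46 ± 0.09, adjusted p = 0.0368), and the median of 28 genes was -0.16. In the cell cycle list Rrm2, a subunit of ribonucleotide reductase, stood at 6.45, 6.74 and 6.77 against 6.19, 6.07 and 6.18 (0.51 ± 0.10, 0.0343), with a median of 0.11 over 28 genes. Among markers of hepatocytes around the central vein, Lhpp, a phosphatase, stood at 10.12, 10.01 and 9.78 against 9.41, 9.53 and 9.62 (0.45 ± 0.09, 0.0389), with a median of 0.24 over 14 genes. No overlap between the groups was seen for the 3 genes. Without curcumin replicate 2 their adjusted p was 0.196 (Mx2), 0.207 (Rrm2) and 0.241 (Lhpp), and without calcitriol replicate 2 it was 0.14, 0.125 and 0.132. Mx2 and Lhpp failed without curcumin replicate 1 (0.0744 and 0.0771), and Rrm2 without curcumin replicate 3 (0.0601). With length corrected Rrm2 and Lhpp failed as well (both 0.0708). No gene passed in the lists of fibrosis and matrix (33 tested, median 0.07), bile acids (23, 0.08), glucose metabolism (22, 0.09), endoplasmic reticulum chaperones (22, -0.15), the circadian clock (19, 0.03), the urea cycle (18, 0.10) or lysosomes (30, 0.04). Col1a1, the main collagen of scar tissue, differed by 0.45 ± 0.32 (0.45).

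Several of the largest differences were in genes of no list. On the higher side, Gpc1, a heparan sulfate proteoglycan of the cell surface, stood at 8.60, 8.70 and 8.59 with curcumin and at 7.89, 7.97 and 7.54 with calcitriol (0.83 ± 0.10, adjusted p = 0.00606). Clstn3, a calsyntenin, stood at 7.74, 7.55 and 7.57 against 7.04, 6.79 and 6.84 (0.73 ± 0.09, 0.00424). Clstn3 was the 1 gene still called higher without curcumin replicate 2 (0.0439), and Gpc1 then had 0.0956. The other large rises were 9130409I23Rik (0.69 ± 0.11), the semaphorin Sema5b (0.63 ± 0.12), Pnldc1, a nuclease that trims small RNAs of the germ line (0.59 ± 0.09), and the transcription factor Olig1 (0.53 ± 0.12). On the lower side, Plxnc1, a semaphorin receptor, stood at 7.94, 7.94 and 8.11 against 8.59, 8.88 and 9.14 (-0.88 ± 0.13, 0.0236). The homeobox gene Zfhx2 (-0.80 ± 0.15, 0.0447) and Adam23 (-0.76 ± 0.10, 0.00567) and Adam11 (-0.76 ± 0.15, 0.0493), members of the ADAM family without protease activity, were lower with curcumin. The groups were apart for each gene of this paragraph, as for all 214 genes that passed. Without curcumin replicate 2 the adjusted p of the genes named here other than Clstn3 lay between 0.0711 (9130409I23Rik) and 0.255 (Olig1), with 0.0816 for Adam23. Sema5b failed without any library but calcitriol replicate 1. Plxnc1, Zfhx2, Adam11 and Olig1 failed without calcitriol replicate 2 (0.0938, 0.145, 0.146 and 0.157), and the last 3 of them with length corrected (0.0849, 0.0853 and 0.0939). Those 3 also failed without curcumin replicate 3 (0.0774, 0.0762 and 0.0835). Plxnc1 and Adam11 failed without curcumin replicate 1 (0.0605 and 0.0549), and Zfhx2 and Olig1 without calcitriol replicate 3 (0.097 and 0.0874).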

How the data were processed

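RNA sequencing values of 12 whole-liver libraries were used, of which 6 entered the fit. The authors deposited 1 table per library, with a log2 value for each gene. The submitters' processing notes name STAR 2.4.0d, DESeq2 1.8.1 and the build GRCm38 without their roles. The transformation, scaling and strand setting are not given in the sources used here. Of 45792 genes, 23411 were at 0 in all 12 libraries and 22381 had values, from -3.63 to 20.7. Low values sit near a floor, so fold changes of weakly expressed genes may be understated. Counts were not used, and no counting interval can be given. GENCODE M21 gave symbols and transcript lengths, and 32 tested genes have no symbol.

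A gene entered the test with a value of at least 3.32, the log2 of 10, in 3 or more of the 12 libraries. In R 4.3.3, limma 3.58.1 was fitted to the 3 curcumin and 3 calcitriol libraries alone, with empirical Bayes moderation (trend and robust). Tests were two-sided with 95% intervals, and p-values were adjusted by the Benjamini-Hochberg method over the 12637 genes, with a threshold of 0.05. The script was tested on simulated data. Lists are described by counts and medians, without a test. A list score is the mean deviation of the list's tested genes from their means over 12 libraries.

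The rule for named genes takes the 12 largest differences in either direction among genes past the threshold with groups apart. It adds up to 4 genes of smallest p from each list with a called gene or with 3 or more at an unadjusted p under 0.05, a set of genes tied to the drugs, and the 3 genes of largest SD within each group. Not every gene that the rule names is reported here. Named after their values were seen were the other sinusoidal and endothelial genes, the serum amyloid and lipocalin genes, Plin2, Plin4, Plin5, Cpt1a, Alb, Hamp, Met, Kmt2c, Apc and the genes of the closing observations. The comparison, the members and the lists were chosen with earlier results of these data known.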

Additional observations from a re-analysis of the deposited data

How the results depend on the processing

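Of 214 calls (53 higher, 161 lower, 14 of them sinusoidal), 0 were left with all 12 libraries in the fit (higher 0, lower 0, sinusoidal 0) and 0 with no filter on low values (0, 0 and 0), where 1873 and 3247 genes had an unadjusted p under 0.05 in limma. There were 79 without trend and robust moderation (15 higher, 64 lower), 107 with length corrected (24 and 83) and 111 with length and GC corrected (25 and 86). With curcumin replicate 2 and calcitriol replicate 3 both left out, 5 were called (1 higher, 4 lower, 2 sinusoidal). Leaving out 1 library at a time gave 14 to 603 calls, 1 to 285 higher, 13 to 318 lower and 6 to 15 sinusoidal. The corrections for length and GC and the fit without both end libraries were chosen after seeing the data. Every called gene that could be tested kept its direction in every setting. Depth is unknown, so its limit cannot be given, and the cause of these changes was not tested.

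The replicate block, which treats equal replicate numbers as pairs, gave 323 calls, 125 higher and 198 lower, 15 of them sinusoidal. Same-numbered libraries correlated at 0.09, 0.22 and -0.09 in their deviations, so the numbers were not taken to pair the samples.

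The genes that changed sign were not called. With length, and length with GC, Cyp2r1 had -0.02 and -0.03, Gc -0.03 and -0.03, Nfkbia -0.01 and -0.01, and Vwf 0.08 and 0.09. With both end libraries left out, Cyp2r1 had -0.01, Hmox1 0.08, Il1b 0.1, Slco1a1 -0.13 and Vwf 0.02, and with quantile scaling Alb had 0. With 1 library left out, values ran from -0.01 to 0.13 for Cyp2r1, 0 to 0.08 for Gc, -0.21 to 0.04 for Hmox1, 0.04 to 0.09 for Nfkbia, -0.23 to 0.04 for Il1b, -0.02 to 0.19 for Ccl2, -1.31 to 0.28 for Cyp3a16, -0.12 to 1.19 for Slco1a1, -0.2 to 0.91 for Gm42418, -0.01 to 0.15 for Vegfc, -0.09 to 0.02 for Vwf, -0.02 to 0.11 for Wnt9b and 0.17 to 0.55 for Alb.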

Other observations

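The genes below passed and were picked after their values were seen, so they stand as single genes and not as a group. In the lists, 0 of 38 genes of oxidative phosphorylation and 1 of 25 NRF2 targets passed. Gpx4, which reduces lipid peroxides, stood at 8.74, 8.93 and 8.70 with curcumin and at 8.35, 8.49 and 8.40 with calcitriol, a difference of 0.38 ± 0.07 (adjusted p = 0.0364). Sirt5, a mitochondrial deacylase, stood at 7.30, 7.34 and 7.30 against 6.99, 6.96 and 6.92 (0.36 ± 0.07, 0.0357). Cisd1, an iron-sulfur protein of the outer mitochondrial membrane, stood at 10.90, 11.06 and 10.82 against 10.55, 10.54 and 10.29 (0.47 ± 0.09, 0.0328). The groups were apart for each of them. Coa6, an assembly factor of cytochrome oxidase (0.45 ± 0.09, 0.0343), Immp2l, a peptidase of the inner membrane (0.43 ± 0.08, 0.0296), and Phb, a scaffold of that membrane (0.36 ± 0.08, 0.0466), were higher as well. With length corrected the adjusted p of these 6 genes lay between 0.0611 (Sirt5) and 0.0861 (Gpx4), and without curcumin replicate 2 between 0.128 (Coa6) and 0.216 (Phb).

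Hhex, a transcription factor of liver development, stood at 9.71, 9.73 and 9.69 with curcumin and at 9.32, 9.14 and 9.10 with calcitriol, a difference of 0.52 ± 0.07 (adjusted p = 0.00606; 0.0681 without curcumin replicate 2). Anxa2 (0.37 ± 0.08, 0.0438) and its binding partner S100a10 (0.51 ± 0.08, 0.0117) were both higher, and without curcumin replicate 2 had an adjusted p of 0.239 and 0.11. With length corrected Anxa2 had 0.0777 and S100a10 0.0289. On the lower side, Siglec1 and Tlr8 are known from macrophages. Siglec1, a sialic acid receptor of resident macrophages, stood at 8.34, 7.85 and 8.05 against 8.72, 8.79 and 8.83 (-0.70 ± 0.11, 0.021). Tlr8, an RNA sensor, stood at 5.70, 5.57 and 5.73 against 6.33, 6.34 and 6.42 (-0.70 ± 0.08, 0.00414). Every curcumin value of both lay below every calcitriol value, and Tlr8 passed with each library left out (adjusted p up to 0.0439) while Siglec1 had 0.0681 without curcumin replicate 2. Inhbb, an activin subunit, stood at 5.19, 5.16 and 5.21 against 5.68, 5.77 and 6.22 (-0.70 ± 0.13, 0.0296), with 0.207 without curcumin replicate 2 and 0.0509 with length corrected.

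The genes with the largest spread within a drug group had overlapping groups. Cyp3a16 stood at 10.23, 7.87 and 7.89 with curcumin and at 10.78, 7.59 and 9.17 with calcitriol. Slco1a1, an organic anion transporter, stood at 6.29, 8.38 and 8.63 against 6.29, 8.90 and 6.87. Replicate 1 of either group was thus high for Cyp3a16 and low for Slco1a1, and the replicate numbers are not known to pair the libraries. Gm42418 stood at 16.53 in curcumin replicate 3 and between 14.18 and 15.05 in the other 5 libraries.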
